A study of Mus musculus with 12 samples.

Results

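The change in messenger RNA between 0 h and 48 h after surgical removal of the fiber cells was measured in wild type lens capsules with their attached epithelial cells. Fiber cell loss, the wound and the time passed cannot be told apart in this comparison. The comparison used the 6 wild type (WT) libraries out of 12 in the series, 3 per time point. They were chosen by their labels alone, and all genes measured in them are members: 24147 genes were counted and 14560 had enough reads to be tested. Living C57BL/6 mice aged 2 months had their lens fiber cells taken out through a cut in the central cornea, a model of human cataract surgery. The lens capsule with the lens epithelial cells still attached was collected at once (WT 0 h) or 48 h later (WT 48 h). Every group, the 0 h group included, had therefore undergone the operation, and no unoperated lens is among the groups used here. The other 6 libraries came from lenses with a conditional knockout of fibronectin (FNcKO), 3 at each time, at the same age. They entered the fit for the estimate of spread and are set beside the WT response at the end. Any difference in strain background between the genotypes cannot be told apart from the knockout. The Cre line of the knockout, the number of lenses or animals per library and the hour of day at collection could not be read from the labels. The design text calls the libraries biological triplicates, and p-values measure the spread between these libraries.

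The lens is a closed ball of one cell lineage. A single sheet of epithelial cells lines the front of its capsule, drives ion and nutrient exchange for the whole organ, and divides and differentiates at its edge into the elongated, crystallin-filled fiber cells that make up the bulk. When fiber cells are removed in cataract surgery, the epithelial cells left on the capsule can divide, migrate and change character, which is the cellular basis of posterior capsular opacification, the clouding of the capsule after surgery. Matrix, cytokine, cell cycle and crystallin genes are the usual readouts of this response. The results here concern the other systems of the cell: protein synthesis and breakdown, cell junctions and channels, metals and lysosomes, the actin skeleton, stress signalling, the daily clock, and developmental regulators.

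WT libraries held 8734906 to 10862573 counts in genes. Values are CPM, the read counts of a gene relative to the library's total. They were scaled by TMM, a normalization that assumes most genes keep their share, and were not divided by gene length. Fold changes carry ± 1 SE. Of 16 markers of lens epithelium, all were tested, and 8 of them fell. That count was 5 without 0 h replicate 1 and 4 without 48 h replicate 1. Their sum was 76354 to 121638 CPM at 0 h and 13298 to 42917 CPM at 48 h. Most of it in every library was Cryaa, a crystallin that fiber cells express, so the sum mainly follows that gene. The list also holds Lim2, a gene expressed in fiber cells. Pax6, the master regulator of eye development, was at 416, 441 and 509.7 CPM at 0 h and 393, 353 and 371 CPM at 48 h, a difference that did not pass the test (log2 fold change -0.29 ± 0.17, edgeR adjusted p = 0.2). Cdh1, the epithelial cadherin, was at 395, 306 and 440 CPM at 0 h and 138, 217 and 181 CPM at 48 h and fell (log2 fold change -1.09 ± 0.29, edgeR adjusted p = 0.011). For Cdh1, the edgeR adjusted p was 0.0518 without 48 h replicate 1. Pax6 and Cdh1 were both detected in every library. Foxe3, a transcription factor of the lens epithelium, was at 105, 67.2 and 76.98 CPM at 0 h and 9.99, 39.1 and 29.6 CPM at 48 h, with no overlap between the times but an edgeR adjusted p of 0.0825.

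Transcripts of other tissues moved between the times too. Neutrophil markers (11 genes, of which 6 were tested and 6 rose) summed to 4.82 to 10.3 CPM at 0 h and 62.1 to 355 CPM at 48 h, and 48 h replicate 1 held the highest sum. A gene with almost no reads at 0 h could enter the test only through its reads at 48 h. For such genes, here and in the lists below, a rise was built into the filter. Macrophage and monocyte markers (18 genes, 17 tested, 7 rose) summed to 86.7 to 198 CPM and then 318 to 855 CPM, again highest in 48 h replicate 1. None of the 15 lymphocyte markers had enough reads to be tested, and Ncr1 and Gzma were at 0 in all WT libraries. Erythroid and platelet markers (12 genes, 5 tested, 3 rose) went from 4.92 to 9.997 to 42.2 to 84.03 CPM, with Hbb-bt, Hba-a1 and Hba-a2 at 0. Vascular endothelial markers (14 genes, 12 tested, 5 rose) summed to 75.5 to 138 CPM at 0 h and 113 to 190.2 CPM at 48 h. The number of endothelial markers that rose was 3 with the replicate block, 2 without 0 h replicate 1, 3 without 0 h replicate 2, 2 without 0 h replicate 3 and 2 without 48 h replicate 2. Photoreceptor markers (18 genes, 18 tested, 2 fell), which belong to the neighbouring retina, summed to 2539.7 to 7826 CPM at 0 h and 1685 to 4284 CPM at 48 h, ranges that overlap. The number of photoreceptor markers that fell was 1 with total counts as the scale, 1 without a filter, 0 with the replicate block, 1 without 0 h replicate 1, 0 without 0 h replicate 2, 0 without 48 h replicate 1, 0 without 48 h replicate 2 and 1 without 48 h replicate 3. Ciliary body and iris markers (12 genes, 11 tested, 2 rose and 3 fell) went from 514 to 576 to 177 to 305 CPM. Cornea and conjunctiva markers (12 genes, 9 tested, 2 rose and 1 fell, Kera at 0) overlapped, at 770.2 to 1125 and 392 to 1037 CPM. Lens fiber cell markers (20 genes, 20 tested, 8 fell) summed to 38670 to 70815 CPM at 0 h and 3549.9 to 18941 CPM at 48 h. The number of fiber markers that fell was 15 by DESeq2, 15 with the WT libraries alone, 5 with the replicate block, 5 without 0 h replicate 1, 4 without 48 h replicate 1 and 4 without 48 h replicate 3. In bulk libraries, fewer cells of a type and less RNA per cell cannot be told apart.

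**Figure D1:**
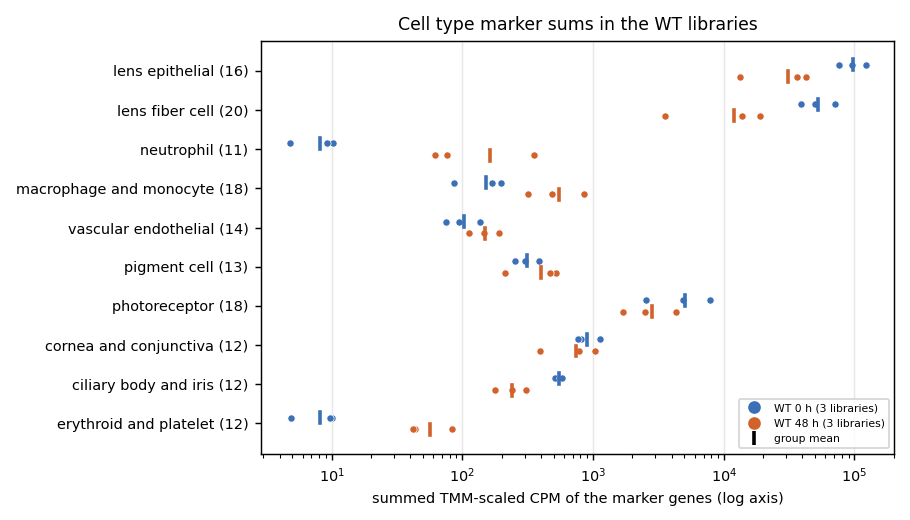
Summed TMM-scaled CPM of marker genes of 10 cell types (log axis, number of genes in each list in brackets) in each WT library, with the group mean as a bar. Neutrophil sums were 4.82 to 10.3 CPM at 0 h and 62.1 to 355 CPM at 48 h, while lens fiber sums were lower at 48 h without overlap.

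Across the transcriptome, 4745 of 14560 tested genes passed the threshold (edgeR quasi-likelihood test, Benjamini-Hochberg adjusted p below 0.05), which is 32.6% of them. Of these, 2775 rose (19.1% of tested genes) and 1970 fell (13.5%). The counts of risers and fallers in each gene list below are to be read beside these shares. The median log2 fold change over all tested genes was 0.02. A change of at least 2-fold was seen for 1805 risers (12.4%) and 1171 fallers (8.04%), and of at least 8-fold for 589 risers and 90 fallers. Genes that rose took up 8.82% to 9.37% of each 0 h library and 23.3% to 30.7% of each 48 h library. Genes that fell went from 26.8% to 30.3% of the counts at 0 h to 12% to 14.5% at 48 h. Crystallins, which are most of the protein of fiber cells, took 12.9% to 20.2% of the counts at 0 h and 1.79% to 7.44% at 48 h. When total counts set the scale in place of TMM, the median of all genes shifted to 0.23 and the share of calls that were rises went from 58.5% to 76.3%, so fold changes here are relative to the TMM reference. Small group counts were unstable: of the 14 counts of 1 to 3 members in one direction of a pathway list, 11 changed by more than 1.5 times under at least 1 alternative.

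The calls varied with gene length and starting level. In the 3640 tested genes with the shortest gene models (65 to 1891 bases), 22.5% rose and 6.73% fell, with a median log2 fold change of 0.24. In the 3640 with the longest models (4475 to 104320 bases), 12.6% rose and 22.0% fell, with a median of -0.23. By mean level at 0 h, 28.5% of the lowest 3640 genes rose and 5.69% fell, against 12.3% and 25.1% of the highest 3640. The level at 0 h is part of the change that was counted, and genes with reads only at 48 h fall in the lowest group. A difference of this direction is therefore built into that ordering. RNA integrity values are not among the sources used here, and the part of length in the counts for single gene groups below was not tested.

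Genes for making protein rose together. The aminoacyl-tRNA synthetases load amino acids onto tRNAs, and of the 23 tested genes of this list, their scaffold protein Eef1e1 included, 14 rose and 0 fell, with a median log2 fold change of 0.61. Aars, the alanine enzyme, was at 82.2, 61 and 60 CPM at 0 h and 158, 159.9 and 171 CPM at 48 h, and every 48 h library lay above every 0 h library (log2 fold change 1.26 ± 0.17, edgeR adjusted p = 0.00016). Vars, the valine enzyme, was at 50.7, 46.8 and 46.98 CPM at 0 h and 127, 78.1 and 107 CPM at 48 h (log2 fold change 1.11 ± 0.23, edgeR adjusted p = 0.00304). Rars, for arginine, rose as well (log2 1.04 ± 0.199, edgeR adjusted p = 0.00173), as did Hars, for histidine (log2 0.83 ± 0.17, edgeR adjusted p = 0.00238). The abundant members Eprs at 142 ± 14.5 to 162 ± 6.497 CPM (mean ± SD, n = 3) and Sars at 69.8 ± 9.82 to 93.7 ± 12.3 CPM did not pass the test. The number of synthetases that rose was 9 without 0 h replicate 2 and 8 without 0 h replicate 3.

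Promoters of 11463 of the 14560 tested genes (78.7%) were found in RefSeq's GRCm38.p6 annotation, the same assembly as the mm10 build of the counts, as 250 bases before to 50 after the start. The composite element bound by ATF4, a transcription factor of amino acid shortage, was searched as TGATGNAA on both strands. It was present in 5 of 16 (31.2%) synthetase promoters and in 243 of 11463 (2.12%) of all tested promoters. Of the 8 motifs searched, the E-box letters CACGTG were in 4 of 16 (25%) synthetase promoters, against 1141 of 11463 (9.95%) of all. The antioxidant response letters TGACNNNGC were in 6 of 16 (37.5%) against 1711 of 11463 (14.9%). The CCAAT letters were in 10 of 16 (62.5%) against 4425 of 11463 (38.6%). The stretches around the ATF4 matches are shown because the synthetases moved together; capitals mark the match, read in the direction of the gene:
Aars, chr8:111033690-111033858 (plus strand): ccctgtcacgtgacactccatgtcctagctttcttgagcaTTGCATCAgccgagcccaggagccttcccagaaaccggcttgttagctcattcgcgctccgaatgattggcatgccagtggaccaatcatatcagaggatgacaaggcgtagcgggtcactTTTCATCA
Gars, chr6:55037931-55038000 (plus strand): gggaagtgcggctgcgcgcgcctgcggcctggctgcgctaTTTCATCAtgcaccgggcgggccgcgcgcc
Iars, chr13:49682097-49682144 (plus strand): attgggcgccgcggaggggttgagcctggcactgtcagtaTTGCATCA
Tars, chr15:11399659-11399713 (minus strand): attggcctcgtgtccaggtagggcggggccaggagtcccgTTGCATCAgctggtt
Yars, chr4:129189866-129189913 (plus strand): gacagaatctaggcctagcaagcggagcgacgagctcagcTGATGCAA
Of these, Aars, Gars, Iars and Tars rose and Yars did not pass the test (log2 fold change 0.45 ± 0.199, edgeR adjusted p = 0.0968). Iars was at 67.9, 69.3 and 62.3 CPM at 0 h and 115, 96.2 and 110.2 CPM at 48 h (log2 fold change 0.69 ± 0.18, edgeR adjusted p = 0.011). Tars was at 50.4, 31.6 and 37.8 CPM at 0 h and 60.6, 55.2 and 66.9 CPM at 48 h (log2 fold change 0.61 ± 0.19, edgeR adjusted p = 0.0276). For Tars, the adjusted p was 0.13 without 0 h replicate 2, 0.0877 without 0 h replicate 3, 0.0624 without 48 h replicate 1 and 0.0899 without 48 h replicate 3. A match is a run of letters, and no binding was measured.

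Ribosome assembly genes rose in larger number. Of 52 nucleolar and ribosome biogenesis genes tested, 26 rose and 0 fell, with a median log2 fold change of 0.63. Npm1, the abundant nucleolar chaperone nucleophosmin, was at 117, 97.2 and 98.1 CPM at 0 h and 429.9, 240.4 and 375 CPM at 48 h (log2 fold change 1.74 ± 0.32, edgeR adjusted p = 0.00157). Nop58, a core protein of the particles that methylate ribosomal RNA, was at 24.4, 24.4 and 26.99 CPM at 0 h and 61.9, 48.8 and 67.02 CPM at 48 h (log2 fold change 1.23 ± 0.25, edgeR adjusted p = 0.00233). Gnl3 (nucleostemin, log2 1.05 ± 0.22) and Noc4l (log2 1.202 ± 0.26) rose too, with edgeR adjusted p of 0.00311 and 0.00368. Nucleolin, Ncl, went from 394 ± 46.3 to 504 ± 71.8 CPM and did not pass (edgeR adjusted p = 0.222). The E-box letters CACGTG, bound by MYC and by clock factors, were in 11 of 48 (22.9%) promoters of the list and 1141 of 11463 (9.95%) of all tested promoters. The number of ribosome biogenesis genes that rose was 12 without 0 h replicate 1, 14 without 0 h replicate 2, 11 without 0 h replicate 3, 10 without 48 h replicate 1 and 11 without 48 h replicate 3.

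Translation initiation factors, which load ribosomes onto messenger RNA, were near the background: of 37 tested, 8 rose, close to the 19.1% of all tested genes that rose, and 1 fell (median log2 0.32). Eif4ebp1, the inhibitor of cap binding, was at 13.9, 7.55 and 7.83 CPM at 0 h and 47.01, 60.8 and 51.05 CPM at 48 h (log2 fold change 2.43 ± 0.29, edgeR adjusted p = 8.27e-05). Eif1a was at 25.6, 28.8 and 23.9 CPM at 0 h and 85.2, 73.7 and 85.2 CPM at 48 h (log2 fold change 1.64 ± 0.17, edgeR adjusted p = 3.79e-05). The helicase Eif4a1 rose by log2 1.01 ± 0.23 (edgeR adjusted p = 0.00438), while Eif4g2 stayed within its spread at 1358 ± 156 to 1343 ± 125 CPM. The number that rose was 19 with total counts as the scale, 5 without 0 h replicate 2, 5 without 0 h replicate 3, 5 without 48 h replicate 1 and 5 without 48 h replicate 3. Of 67 proteins of the mitochondrial ribosome, 13 rose, again close to that share, and 0 fell, with a median log2 of 0.37. That count was 31 with total counts as the scale, 8 with the replicate block, 3 without 0 h replicate 2, 5 without 0 h replicate 3, 5 without 48 h replicate 1, 5 without 48 h replicate 2 and 7 without 48 h replicate 3.

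The machinery that removes protein rose as well. The proteasome is the barrel that degrades ubiquitin-tagged proteins, and of its 38 tested subunits and helpers 22 rose and 0 fell, with a median log2 fold change of 0.55. Psmd14, the enzyme of the lid that strips ubiquitin, was at 32.9, 27.95 and 29.9 CPM at 0 h and 69.4, 61.3 and 57.7 CPM at 48 h (log2 fold change 1.05 ± 0.15, edgeR adjusted p = 0.000235). Psma5, a subunit of the outer ring, was at 29.9, 21.5 and 24.3 CPM at 0 h and 62.6, 57.5 and 54.5 CPM at 48 h (log2 fold change 1.204 ± 0.23, edgeR adjusted p = 0.00184). Psmd3 (log2 0.88 ± 0.16) and Psma1 (log2 1.08 ± 0.24) also rose, at edgeR adjusted p of 0.00113 and 0.00386. Most of these changes were under 2-fold. The number that rose was 34 with total counts as the scale, 6 without 0 h replicate 2, 7 without 0 h replicate 3, 9 without 48 h replicate 1 and 14 without 48 h replicate 3. Cytosolic and mitochondrial chaperones gave 13 risers and 0 fallers among 43 tested (median log2 0.398). Bag3, a partner of HSP70 in the clearing of damaged filaments, was at 29.99, 31.7 and 32.2 CPM at 0 h and 82.6, 90.5 and 77.4 CPM at 48 h (log2 fold change 1.42 ± 0.22, edgeR adjusted p = 0.000417). The mitochondrial chaperonin Hspd1 was at 122, 111 and 113 CPM at 0 h and 287, 190.5 and 256 CPM at 48 h (log2 fold change 1.09 ± 0.23, edgeR adjusted p = 0.00363). The abundant chaperones Hsp90ab1, at 1358 ± 262 to 1916 ± 163 CPM, and Hspa8, at 1512 ± 309 to 1867 ± 185 CPM, did not pass. The number of chaperones that rose was 23 with total counts as the scale, 8 without 0 h replicate 2, 6 without 0 h replicate 3, 8 without 48 h replicate 1 and 8 without 48 h replicate 3.

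Of 50 carriers and pore proteins of nuclear import and export, 15 rose and 0 fell (median log2 0.298), led by Ranbp1, a partner of the GTPase Ran, at 34.1, 26.7 and 29.2 CPM at 0 h and 78.6, 62.7 and 84.7 CPM at 48 h (log2 fold change 1.33 ± 0.24, edgeR adjusted p = 0.00124). The number that rose was 9 without 0 h replicate 1, 9 without 0 h replicate 2, 8 without 48 h replicate 1 and 9 without 48 h replicate 3. Of 14 polyamine genes, 7 rose and 0 fell (median log2 0.81). Odc1, the first and limiting enzyme of polyamine synthesis, was at 202, 165 and 193 CPM at 0 h and 506, 440.4 and 413 CPM at 48 h (log2 fold change 1.28 ± 0.22, edgeR adjusted p = 0.000831), spermidine synthase Srm rose by log2 1.05 ± 0.25 (edgeR adjusted p = 0.00702), and Sat1, which marks polyamines for export, by log2 0.96 ± 0.199 (edgeR adjusted p = 0.00283). The number of polyamine genes that rose was 4 without 0 h replicate 1, 3 without 0 h replicate 2 and 4 without 48 h replicate 1.

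Amino acid carriers did not follow the synthetases. Of 24 tested plasma membrane amino acid transporters, 4 rose and 8 fell, with a median log2 fold change of -0.36. Slc6a6, the taurine carrier, was at 5628, 6204 and 6007 CPM at 0 h and 2296, 1651 and 2326 CPM at 48 h, so that each 48 h library held less than any 0 h library (log2 fold change -1.51 ± 0.26, edgeR adjusted p = 0.000979). Slc6a9, a glycine carrier, was at 232, 345 and 329.6 CPM at 0 h and 117, 103 and 108 CPM at 48 h (log2 fold change -1.47 ± 0.205, edgeR adjusted p = 0.000241). Slc38a2, a carrier of small neutral amino acids, was at 711, 780 and 881 CPM at 0 h and 296, 340.4 and 325 CPM at 48 h (log2 fold change -1.302 ± 0.27, edgeR adjusted p = 0.00259), and its relative Slc38a3 fell by 1.38 on the log2 scale (edgeR adjusted p = 0.000436). The heterodimer partners Slc3a2 (566 ± 96.1 to 386 ± 36.03 CPM), Slc7a5 (102 ± 26.1 to 90.6 ± 20.8 CPM) and Slc7a11, the cystine carrier (546 ± 121 to 506 ± 146 CPM), did not pass the test. In serine and one-carbon metabolism, 6 of 20 genes rose and 5 fell. Mthfd2, the mitochondrial folate enzyme, was at 5.32, 5.41 and 5.66 CPM at 0 h and 18.3, 19.3 and 26.04 CPM at 48 h (log2 fold change 1.96 ± 0.32, edgeR adjusted p = 0.000689). Cbs, which makes cystathionine from serine, was at 16.1, 23.6 and 14.3 CPM at 0 h and 3.71, 6.32 and 5.91 CPM at 48 h (log2 fold change -1.76 ± 0.29, edgeR adjusted p = 0.000676).

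**Figure D2:**
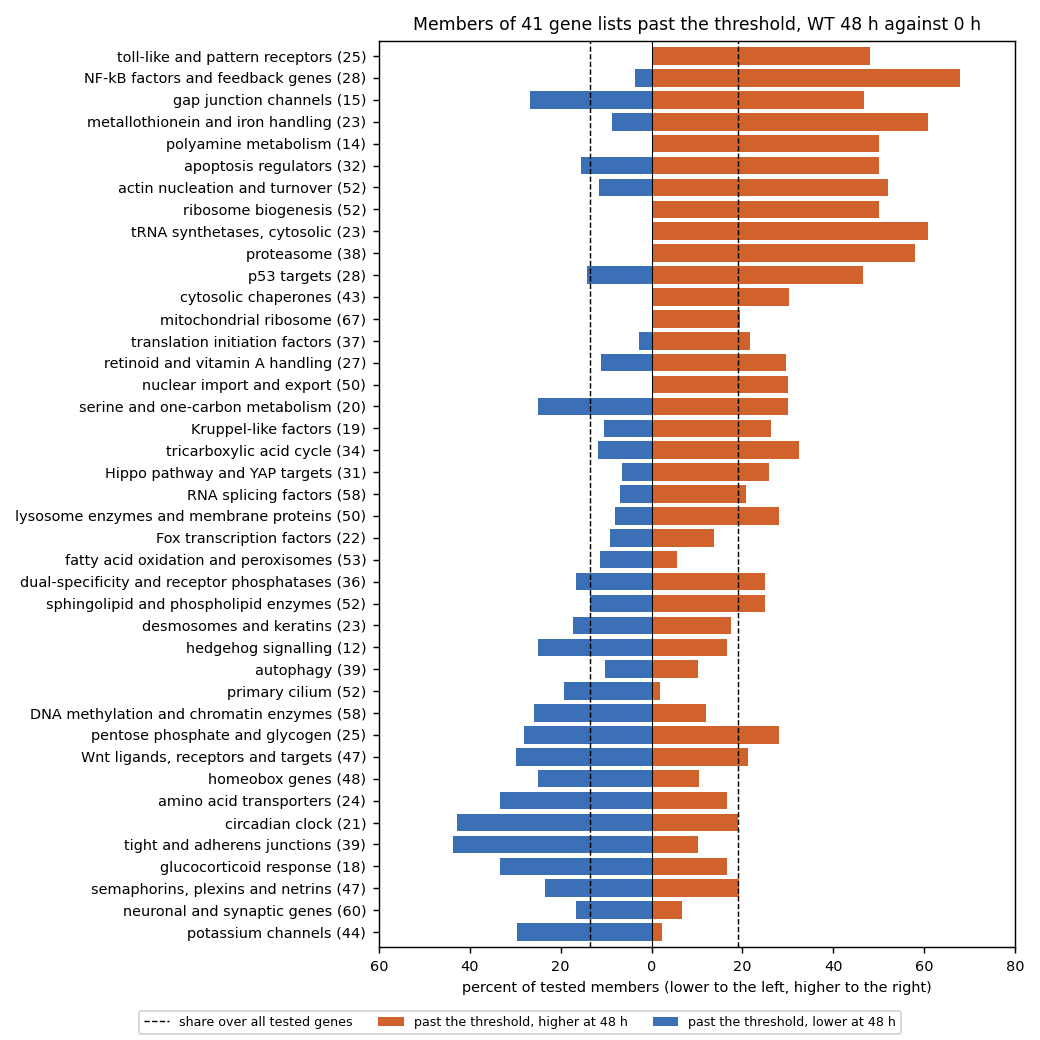
Percent of tested members of each of 41 gene lists that rose (right) or fell (left) past the threshold at 48 h in WT, ordered by median log2 fold change, with the number tested in brackets. Dashed lines give the shares over all tested genes, 19.1% higher and 13.5% lower; proteasome, ribosome biogenesis and synthetase lists have no bar to the left, and potassium channels have almost none to the right.

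The largest rises were ranked with matrix, cell cycle and crystallin genes and inflammatory genes left out. The inflammatory genes left out were cytokines, interferon targets and acute phase or alarmin genes such as Lcn2, S100a8 and S100a9. The remaining rises were of more than one kind. Among the remaining genes that passed the test, reached a group mean of 20 CPM and did not overlap between the times (libraries did not overlap for 51.5% of all tested genes), the 14 with the highest log2 fold change included Ppbp, Sprr1a, Trem1, Igfbp3, Gp49a, Slfn4, Fgr, 5730559C18Rik, Slfn1, Srgn and Fxyd5. Several of them encode secreted or epithelial proteins. Sprr1a, a cornified envelope protein induced in stressed epithelia and injured neurons, was at 0, 0.306 and 0.361 CPM at 0 h and 85.2, 21.2 and 16.7 CPM at 48 h (log2 fold change 7.49 ± 1.04, edgeR adjusted p = 0.000421). Igfbp3, the main carrier of insulin-like growth factors, was at 1.103, 1.02 and 1.33 CPM at 0 h and 179.9, 140.2 and 202 CPM at 48 h (log2 fold change 7.23 ± 0.82, edgeR adjusted p = 0.00016). Fxyd5, a small membrane protein that modulates the sodium pump and weakens cell adhesion, was at 0.401, 0.918 and 0.723 CPM at 0 h and 77.1, 59.6 and 43.4 CPM at 48 h (log2 fold change 6.44 ± 0.43, edgeR adjusted p = 1.27e-06). In Igfbp3 and Fxyd5 the 48 h libraries lay within 2-fold of each other. Sprr1a was highest in 48 h replicate 1. For Sprr1a, the log2 fold change was 6.896 without 0 h replicate 1 and 6.38 without 48 h replicate 1.

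A further set is known from leukocytes and platelets. Srgn, the proteoglycan of secretory granules, was at 0.803, 0.918 and 1.81 CPM at 0 h and 196, 73.7 and 58.3 CPM at 48 h (log2 fold change 6.55 ± 0.6, edgeR adjusted p = 2.96e-05). Fgr, a Src family kinase of myeloid cells, was at 0, 0.408 and 0.1205 CPM at 0 h and 39.02, 11.96 and 9.23 CPM at 48 h (log2 fold change 6.71 ± 1.01, edgeR adjusted p = 0.00056). Trem1, an activating receptor of neutrophils and monocytes, had 3 counts in all at 0 h and was at 44.1, 9.92 and 10.6 CPM at 48 h, a ratio of 205 (95% exact counting interval 69.9 to 997) at an edgeR adjusted p of 0.000647. Ppbp, a platelet chemokine precursor whose symbol is not among the prefixes used to set cytokine genes apart, had 2 counts at 0 h and was at 39.6, 7.49 and 14.7 CPM at 48 h, a ratio of 293 (95% exact counting interval 80.8 to 2424) at an edgeR adjusted p of 0.00112. Gp49a, an immunoglobulin-like receptor gene with a near-identical neighbour, rose by log2 7.13 ± 0.93 (edgeR adjusted p = 0.000218). The Schlafen genes Slfn4 (0.602, 0.5101 and 0.482 CPM at 0 h and 106, 46.3 and 27.9 CPM at 48 h) and Slfn1 (0.1003, 0.306 and 0.241 CPM at 0 h and 43.1, 10.6 and 10.6 CPM at 48 h) rose too (log2 6.78 ± 0.57 and log2 6.56 ± 0.88, edgeR adjusted p = 1.12e-05 and 0.00025), and since they belong to a tandem family the split of reads among its members is uncertain. All 7 genes of this paragraph, and Sprr1a, were highest in 48 h replicate 1, the library with the highest neutrophil and macrophage marker sums, and the part of those cells in the result was not tested. For Srgn, the log2 fold change was 5.83 without 48 h replicate 1. For Fgr, the log2 fold change was 8.16 without 0 h replicate 2 and 5.797 without 48 h replicate 1. For Gp49a, the log2 fold change was 8.28 without 0 h replicate 2 and 5.96 without 48 h replicate 1. For Slfn4, the log2 fold change was 6.09 without 48 h replicate 1. For Slfn1, the log2 fold change was 5.54 without 48 h replicate 1.

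Promoters of the strong risers held more AP-1 letters. AP-1 is the Fos and Jun dimer, and its site was searched as TGANTCA, a palindrome that both strands read alike. It was in 88 of 746 (11.8%) promoters of genes that rose at least 4-fold, in 16 of 268 (5.97%) of those that fell at least 4-fold, in 358 of 7791 (4.595%) of those that did not pass and in 590 of 11463 (5.15%) of all tested promoters. Cp, which rose by log2 1.19, is outside the set that rose at least 4-fold. The N admits any base, so matches with A or T in the middle, as in Cp, were counted beside those with the usual C or G. The stretches are shown for risers named in these results, with the match in capitals:
Sprr1a, chr3:92485951-92486067 (minus strand): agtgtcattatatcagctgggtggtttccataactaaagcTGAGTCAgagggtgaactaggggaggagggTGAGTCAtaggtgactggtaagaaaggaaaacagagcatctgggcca
Slfn4, chr11:83175112-83175185 (plus strand): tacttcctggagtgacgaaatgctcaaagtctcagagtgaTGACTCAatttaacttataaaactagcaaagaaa
Gpnmb, chr6:49036486-49036532 (plus strand): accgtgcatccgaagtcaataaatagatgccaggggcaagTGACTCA
Cp, chr3:19956837-19956923 (plus strand): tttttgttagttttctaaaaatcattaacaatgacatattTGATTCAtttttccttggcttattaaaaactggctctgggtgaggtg
Sprr1a held 2 matches in the window. The TEAD letters GGAATG, read on both strands, were in 89 of 746 (11.9%) of the strong risers' promoters against 1398 of 11463 (12.2%) of all, and the CCAAT letters in 282 of 746 (37.8%) against 4425 of 11463 (38.6%). The ATF4 letters were also more frequent there, in 29 of 746 (3.89%) against 243 of 11463 (2.12%). The E-box letters were less frequent, in 53 of 746 (7.1%) against 1141 of 11463 (9.95%).

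**Figure D3:**
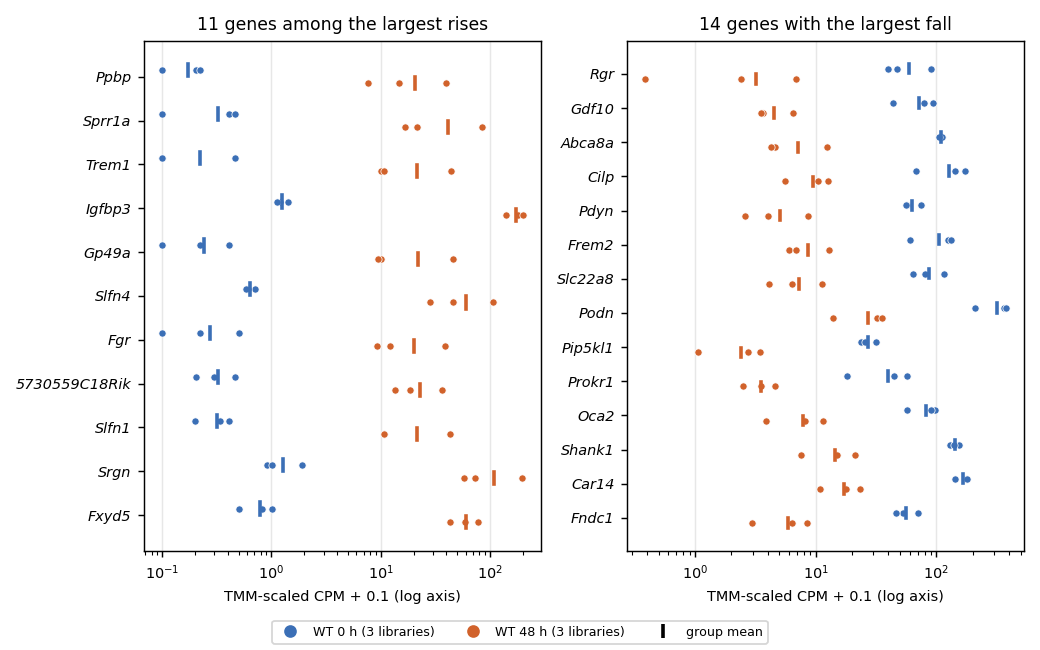
TMM-scaled CPM plus 0.1 (log axis) in each WT library for 11 of the 14 genes with the largest rise and the 14 with the largest fall under the naming rule, with group means as bars. In every gene shown the 3 libraries at 48 h lie apart from the 3 at 0 h, as the rule required, and Srgn, Sprr1a and Trem1 have 1 library at 48 h well above the other 2.

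Connexin genes moved in opposite directions. Gap junctions are channels that join neighbouring cells, with Gja3 used in lens fibers and Gja1 mainly in lens epithelium. Of 15 tested gap junction genes, 7 rose and 4 fell. Gjb5 had 1 count at 0 h and was at 9.14, 4.28 and 13.1 CPM at 48 h, a ratio of 245 (95% exact counting interval 43.7 to 9729) at an edgeR adjusted p of 9.97e-05. Gja4, an endothelial connexin, had 1 count at 0 h and reached 0.952, 2.82 and 1.76 CPM at 48 h, a ratio of 51.7 (95% exact counting interval 8.901 to 2077) at an edgeR adjusted p of 0.00525. Gjb2 was at 0, 1.12 and 0.361 CPM at 0 h and 4.47, 14.3 and 7.78 CPM at 48 h (log2 fold change 4.12 ± 0.94, edgeR adjusted p = 0.00528). The pannexin Panx1 was at 1.505, 1.12 and 1.81 CPM at 0 h and 9.23, 7 and 9.55 CPM at 48 h (log2 fold change 2.53 ± 0.49, edgeR adjusted p = 0.00178). For Gjb2, the log2 fold change was 3.53 without 0 h replicate 1 and 5.58 without 0 h replicate 2.

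The fiber connexin Gja3 moved the other way. It was at 596, 450.1 and 675 CPM at 0 h and 49.1, 194 and 151 CPM at 48 h and fell (log2 fold change -2.13 ± 0.66, edgeR adjusted p = 0.0297). For Gja3, the adjusted p was 0.0605 without 0 h replicate 1, 0.0909 without 48 h replicate 1 and 0.0701 without 48 h replicate 3. Its fall ran beside a lower fiber marker sum, given above, and the part of that sum in the result was not tested. Gja1 was at 719, 721 and 1007 CPM at 0 h and 817, 571 and 524 CPM at 48 h and did not pass (log2 fold change -0.36 ± 0.22, edgeR adjusted p = 0.223). The number of gap junction genes that fell was 1 without 48 h replicate 1 and 2 without 48 h replicate 3.

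**Figure D4:**
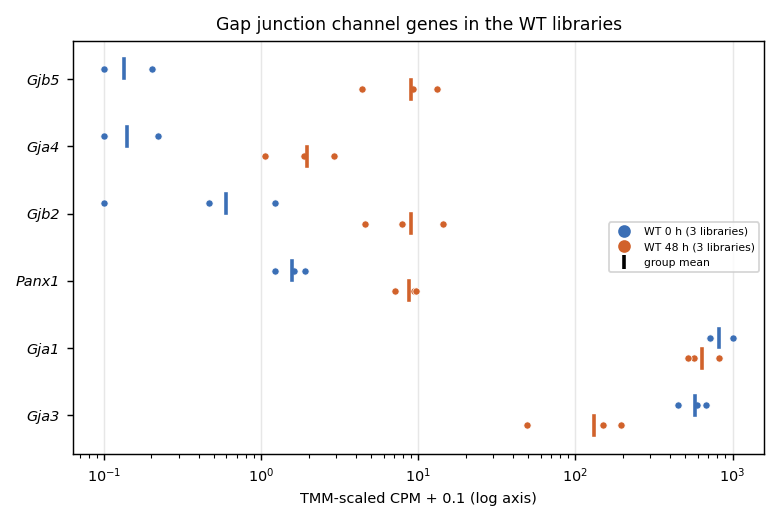
TMM-scaled CPM plus 0.1 (log axis) of 6 gap junction channel genes in the 3 WT libraries at 0 h and the 3 at 48 h, with group means as bars. Gjb5, Gja4, Gjb2 and Panx1 rose from low levels, Gja1 overlaps in level, and Gja3 fell.

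Genes of sealing junctions fell more often than they rose. Of 39 tested genes of tight and adherens junctions, 4 rose and 17 fell, with a median log2 fold change of -0.42. Jam2, a junctional adhesion molecule, was at 179.7, 104 and 158 CPM at 0 h and 33.3, 32.3 and 33.2 CPM at 48 h (log2 fold change -2.16 ± 0.22, edgeR adjusted p = 3.19e-05). Crb2, a Crumbs protein that marks the apical side of epithelia, was at 110, 113 and 146 CPM at 0 h and 47.9, 43.4 and 36 CPM at 48 h (log2 fold change -1.54 ± 0.18, edgeR adjusted p = 7.16e-05). Cingulin, Cgn, was at 100.3, 151 and 106 CPM at 0 h and 63.1, 54.2 and 44.7 CPM at 48 h (log2 fold change -1.14 ± 0.21, edgeR adjusted p = 0.00135). The catenins Ctnnb1, at 774 ± 82.1 to 729 ± 51.1 CPM, and Ctnnd1, at 288 ± 35.4 to 321 ± 63.1 CPM, did not pass. The number that fell was 10 with total counts as the scale. The number of junction genes that rose was 2 with the WT libraries alone, 2 without 0 h replicate 2, 2 without 0 h replicate 3, 2 without 48 h replicate 1 and 2 without 48 h replicate 2. Desmosome and keratin genes were split, with 4 of 23 up and 4 down (17.4% each, against 19.1% and 13.5% of all tested genes). With total counts as the scale, 5 of them rose and 1 fell. Risers among them numbered 2 without 48 h replicate 3. Fallers among them numbered 1 with total counts as the scale, 7 by DESeq2, 2 without 0 h replicate 3, 1 without 48 h replicate 1 and 1 without 48 h replicate 3. The nuclear lamin Lmna, on that list as an intermediate filament, was at 43.04, 32.2 and 38.4 CPM at 0 h and 205, 195 and 278 CPM at 48 h (log2 fold change 2.57 ± 0.23, edgeR adjusted p = 1.12e-05). The linker plectin, Plec, was at 557, 591 and 597 CPM at 0 h and 1074, 1348 and 1161 CPM at 48 h (log2 fold change 1.04 ± 0.21, edgeR adjusted p = 0.00248).

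Potassium channel genes fell more often than they rose. They set the membrane voltage, and of 44 tested genes 1 rose and 13 fell, with a median log2 fold change of -0.97. Kcnh2, a channel of the ERG type, was at 96, 71.3 and 93.97 CPM at 0 h and 8.85, 16.5 and 19.8 CPM at 48 h (log2 fold change -2.53 ± 0.33, edgeR adjusted p = 0.000206). Kcnj13, an inward rectifier of fluid-transporting epithelia, was at 35.01, 42.2 and 44.5 CPM at 0 h and 13.2, 10.01 and 15.7 CPM at 48 h (log2 fold change -1.64 ± 0.25, edgeR adjusted p = 0.000442). The accessory subunit Kcne4 was at 34.4, 34.6 and 34.8 CPM at 0 h and 13.6, 9.82 and 3.42 CPM at 48 h (log2 fold change -1.94 ± 0.37, edgeR adjusted p = 0.00205). Kcnv2, a channel subunit found in photoreceptors, did not pass, at 55.7 ± 34.96 to 28.7 ± 11.3 CPM. Of 60 neuronal and synaptic genes, 4 rose and 10 fell (median log2 -0.66). Shank1, a scaffold of excitatory synapses, was at 131, 155 and 139 CPM at 0 h and 7.42, 21.2 and 14.8 CPM at 48 h (log2 fold change -3.29 ± 0.44, edgeR adjusted p = 0.000279). The glutamate receptor subunit Grin2b (log2 fold change -2.65 ± 0.39, edgeR adjusted p = 0.000315) and the GABA receptor subunit Gabra3 (log2 fold change -2.598 ± 0.36, edgeR adjusted p = 0.00025) also fell. The number of neuronal genes that fell was 6 without 48 h replicate 3. The number of them that rose was 2 without 0 h replicate 2 and 2 without 0 h replicate 3. Photoreceptor markers were lower beside these lists, with a median log2 fold change of -0.90 in WT, although their sums overlapped between the times. In FNcKO the medians were -0.23 for photoreceptor markers, -0.31 for potassium channels and -0.04 for neuronal genes. The part of retinal RNA in these falls was not tested.

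The 14 largest falls under the same rule were Rgr, Gdf10, Abca8a, Cilp, Pdyn, Frem2, Slc22a8, Podn, Pip5kl1, Prokr1, Oca2, Shank1, Car14 and Fndc1. The rule left genes out by lists of symbols that were not complete, so some matrix genes, such as Frem2 and Podn, remained. Abca8a, a lipid transporter of the ABC family, was at 111, 111 and 106 CPM at 0 h and 4.47, 4.18 and 12.2 CPM at 48 h (log2 fold change -3.98 ± 0.44, edgeR adjusted p = 8.21e-05). Frem2, a basement membrane protein needed for epithelial attachment in development, was at 126, 60.5 and 132 CPM at 0 h and 5.9, 6.71 and 12.8 CPM at 48 h (log2 fold change -3.65 ± 0.49, edgeR adjusted p = 0.00033). Gdf10, a TGF-beta family ligand, was at 43.7, 79.8 and 93.1 CPM at 0 h and 3.52, 6.32 and 3.42 CPM at 48 h (log2 fold change -4.02 ± 0.94, edgeR adjusted p = 0.0086). Podn, a small leucine-rich protein, was at 364, 210.1 and 381 CPM at 0 h and 13.7, 32.3 and 35.1 CPM at 48 h (log2 fold change -3.56 ± 0.58, edgeR adjusted p = 0.0011). Pdyn, the opioid precursor prodynorphin, was at 57.5, 56 and 74.5 CPM at 0 h and 2.47, 3.89 and 8.61 CPM at 48 h (log2 fold change -3.65 ± 0.55, edgeR adjusted p = 0.000669). Slc22a8, an organic anion carrier, was at 80.7, 63.96 and 115 CPM at 0 h and 6.28, 3.99 and 11.2 CPM at 48 h (log2 fold change -3.597 ± 0.403, edgeR adjusted p = 8.27e-05). Car14, a membrane carbonic anhydrase, was at 176, 143 and 179.6 CPM at 0 h and 10.8, 23.04 and 17.6 CPM at 48 h (log2 fold change -3.28 ± 0.42, edgeR adjusted p = 0.000243). For Abca8a, the log2 fold change was -4.65 without 48 h replicate 3. For Pdyn, the log2 fold change was -4.29 without 48 h replicate 3.

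Rgr, an opsin of the pigment epithelium, was at 39.5, 90.2 and 47.6 CPM at 0 h and 0.286, 6.71 and 2.28 CPM at 48 h (log2 fold change -4.25 ± 1.11, edgeR adjusted p = 0.0149). Oca2, a melanosome transporter, was at 98.01, 57.02 and 90.2 CPM at 0 h and 7.99, 11.5 and 3.74 CPM at 48 h (log2 fold change -3.396 ± 0.41, edgeR adjusted p = 0.000125). For Rgr, the log2 fold change was -5.54 without 48 h replicate 2. Pigment cell markers as a whole did not go one way: of 12 tested, 4 rose and 3 fell, and their sum was 254 to 386 CPM at 0 h and 212 to 518 CPM at 48 h. Their median log2 fold change was 1.16 in WT but -1.19 in FNcKO, and 4 of the markers that passed in WT had the same sign in FNcKO. Rpe65, the isomerase of the retinal pigment epithelium, was at 13.2, 22.6 and 14.8 CPM at 0 h and 0.476, 1.26 and 0.726 CPM at 48 h (log2 fold change -4.34 ± 0.82, edgeR adjusted p = 0.00219). Mlana, a melanosome protein, was at 1.103, 5.51 and 1.57 CPM at 0 h and 26.3, 20.1 and 6.74 CPM at 48 h (log2 fold change 2.69 ± 0.602, edgeR adjusted p = 0.00459). The pigment cell regulator Mitf was at 7.22, 9.39 and 7.23 CPM at 0 h and 43.1, 22.7 and 13.6 CPM at 48 h (log2 fold change 1.74 ± 0.37, edgeR adjusted p = 0.00318). For Mlana, the log2 fold change was 3.696 without 0 h replicate 2. Car14 is also on the list of ciliary body and iris markers, whose sum was lower at 48 h, and the part of such tissue in the falls was not tested.

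The greatest gains in absolute level, by difference of mean CPM under the same filter and with the same genes left out, were in Ctsd, Cp, Vim, Actb, Chil1, Actg1, Msn, Gpnmb, Myh9 and Bmp1. Lcn2, an iron-siderophore carrier left out of that ranking as an acute phase gene, was at 72.7, 128 and 53.9 CPM at 0 h and 5571, 5869 and 3822 CPM at 48 h (log2 fold change 5.902 ± 0.498, edgeR adjusted p = 7.58e-06), a larger gain than that of Ctsd. Ctsd, the lysosomal protease cathepsin D, was at 985, 1108 and 1137 CPM at 0 h and 7479, 3278 and 3102 CPM at 48 h (log2 fold change 2.101 ± 0.32, edgeR adjusted p = 0.000423). Gpnmb, a glycoprotein of lysosomes and melanosomes, was at 38.02, 79.8 and 31.2 CPM at 0 h and 1182, 1121 and 523 CPM at 48 h (log2 fold change 4.24 ± 0.54, edgeR adjusted p = 0.000223). Chil1, a secreted chitinase-like protein of inflamed tissue, was at 89.2, 152 and 117 CPM at 0 h and 3491, 1113 and 1919 CPM at 48 h (log2 fold change 4.18 ± 0.46, edgeR adjusted p = 5.35e-05). Bmp1, the protease that trims procollagen, was at 191, 135 and 206 CPM at 0 h and 1036, 719.8 and 1003 CPM at 48 h (log2 fold change 2.37 ± 0.22, edgeR adjusted p = 1.63e-05). Vim, the intermediate filament vimentin, was already abundant, at 3773, 2644 and 3107 CPM at 0 h and 4423, 5808 and 6137 CPM at 48 h (log2 fold change 0.78 ± 0.27, edgeR adjusted p = 0.0412). For Vim, the adjusted p was 0.161 without 0 h replicate 2, 0.106 without 0 h replicate 3, 0.1 without 48 h replicate 2 and 0.118 without 48 h replicate 3.

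The greatest losses included Slc6a6, Malat1, Clu, Dkk3, Mip, Fat1, Scd2, Igfbp7 and Crim1. Malat1, a nuclear long noncoding RNA, was at 2850.5, 5465 and 6588 CPM at 0 h and 1247, 1401 and 1549.9 CPM at 48 h (log2 fold change -1.83 ± 0.45, edgeR adjusted p = 0.00787). Dkk3, a secreted relative of the Wnt inhibitors, was at 4451, 4543 and 5807 CPM at 0 h and 1497, 1812 and 1908 CPM at 48 h (log2 fold change -1.504 ± 0.31, edgeR adjusted p = 0.00293). Fat1, a giant cadherin, was at 3227, 2562 and 3665 CPM at 0 h and 1199, 1042 and 1445 CPM at 48 h (log2 fold change -1.36 ± 0.32, edgeR adjusted p = 0.00573). Scd2, which desaturates fatty acids, was at 2034, 3162 and 3986 CPM at 0 h and 1023, 1040.5 and 1487 CPM at 48 h (log2 fold change -1.37 ± 0.32, edgeR adjusted p = 0.00591). Clu, the secreted chaperone clusterin (log2 -0.86 ± 0.28, edgeR adjusted p = 0.0315), Mip, the fiber aquaporin (log2 -2.76 ± 0.898, edgeR adjusted p = 0.0366), and Igfbp7 (log2 -1.59 ± 0.44, edgeR adjusted p = 0.0147) fell as well, with calls that did not hold in each smaller set of libraries. For Clu, the adjusted p was 0.0764 without 0 h replicate 1, 0.1 without 0 h replicate 3, 0.0932 without 48 h replicate 1, 0.0597 without 48 h replicate 2 and 0.094 without 48 h replicate 3. For Mip, the adjusted p was 0.061 without 0 h replicate 1, 0.0561 without 0 h replicate 2, 0.0577 without 0 h replicate 3, 0.112 without 48 h replicate 1, 0.0975 without 48 h replicate 2 and 0.0507 without 48 h replicate 3. For Igfbp7, the adjusted p was 0.0612 without 48 h replicate 1.

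Genes of the actin skeleton rose on balance. Of 52 genes of actin nucleation and turnover, 27 rose and 6 fell (median log2 0.66). Capg, which caps filament ends, was at 4.31, 4.08 and 3.49 CPM at 0 h and 102, 74.8 and 114 CPM at 48 h (log2 fold change 4.599 ± 0.37, edgeR adjusted p = 7.58e-06). Arpc1b, a subunit of the ARP2/3 complex that branches filaments, was at 23.9, 28.3 and 27.6 CPM at 0 h and 183, 158 and 142 CPM at 48 h (log2 fold change 2.595 ± 0.24, edgeR adjusted p = 1.48e-05). Cofilin, Cfl1, which cuts them, was at 120.1, 118 and 89.2 CPM at 0 h and 468, 386 and 374 CPM at 48 h (log2 fold change 1.91 ± 0.23, edgeR adjusted p = 8.58e-05). Moesin, Msn, which ties actin to the membrane, was at 95.8, 78.5 and 77.5 CPM at 0 h and 1076, 729.7 and 1166 CPM at 48 h (log2 fold change 3.56 ± 0.31, edgeR adjusted p = 9.16e-06). The actins themselves rose, Actb at 1395, 979.9 and 1080.4 CPM at 0 h and 3048, 2597 and 4036 CPM at 48 h (log2 fold change 1.49 ± 0.27, edgeR adjusted p = 0.00121) and Actg1 by log2 1.42 ± 0.28 (edgeR adjusted p = 0.0019), as did the nonmuscle myosin Myh9 (log2 1.63 ± 0.305, edgeR adjusted p = 0.00146).

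Gelsolin, Gsn, went from 326 ± 78.8 to 203 ± 57.7 CPM and did not pass (edgeR adjusted p = 0.0678). The cytoskeletal kinase Pak1 was at 12.7, 13.8 and 15.3 CPM at 0 h and 46.9, 41.5 and 61.8 CPM at 48 h (log2 fold change 1.85 ± 0.22, edgeR adjusted p = 7e-05). The small GTPase Rhoc was at 51.5, 42.8 and 51.3 CPM at 0 h and 134, 134 and 159 CPM at 48 h (log2 fold change 1.55 ± 0.22, edgeR adjusted p = 0.000227), while Rac1 was at 246 ± 35.02 to 279 ± 11.01 CPM and did not pass. Rac2, the form found in blood cells, was at 3.41, 3.26 and 4.699 CPM at 0 h and 54.6, 26.3 and 14.7 CPM at 48 h (log2 fold change 3.07 ± 0.49, edgeR adjusted p = 0.000666), highest in 48 h replicate 1 as the leukocyte marker sums were. For Rac2, the log2 fold change was 2.44 without 48 h replicate 1.

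Genes of metal handling rose on balance. Of 23 tested genes of metallothioneins and iron handling, 14 rose and 2 fell (median log2 0.82). Steap4, a membrane reductase of iron and copper, was at 12.7, 17.3 and 11.9 CPM at 0 h and 456, 374 and 322 CPM at 48 h (log2 fold change 4.77 ± 0.25, edgeR adjusted p = 2.14e-07). Mt2, a metallothionein that binds zinc and copper, was at 7.82, 10.2 and 3.98 CPM at 0 h and 185, 274 and 94.4 CPM at 48 h (log2 fold change 4.64 ± 0.52, edgeR adjusted p = 0.000112). Cp, the copper oxidase ceruloplasmin, which loads iron onto transferrin, was at 1789, 2000.1 and 2577 CPM at 0 h and 6143, 4439 and 3908 CPM at 48 h (log2 fold change 1.19 ± 0.27, edgeR adjusted p = 0.00448). The zinc and iron importer Slc39a14 was at 27.8, 21.6 and 29.6 CPM at 0 h and 72.99, 67.8 and 73.5 CPM at 48 h (log2 fold change 1.44 ± 0.25, edgeR adjusted p = 0.000829). Transferrin itself, Trf, was at 125 ± 37.7 to 83.6 ± 18.7 CPM and did not pass. The number that rose was 7 without 0 h replicate 2 and 8 without 48 h replicate 1.

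Lysosomal genes gave 14 risers and 4 fallers among 50 (median log2 0.15). Cathepsin C, Ctsc, was at 46.7, 51.9 and 58.9 CPM at 0 h and 414, 247 and 499.8 CPM at 48 h (log2 fold change 2.88 ± 0.28, edgeR adjusted p = 2.08e-05). Cathepsin B, Ctsb, was at 525, 519 and 597 CPM at 0 h and 1631, 1260.3 and 903 CPM at 48 h (log2 fold change 1.21 ± 0.22, edgeR adjusted p = 0.00117). Cathepsin S, Ctss, a protease of antigen-presenting cells, was at 8.03, 10.2 and 10.8 CPM at 0 h and 78.4, 78.1 and 33.8 CPM at 48 h (log2 fold change 2.71 ± 0.45, edgeR adjusted p = 0.000901), and the abundant Ctsl and Psap did not pass, at 1613 ± 428 to 1519 ± 327 CPM and 1271 ± 85.4 to 1153 ± 53.8 CPM. Of 39 autophagy genes, 4 rose and 4 fell (7 and 2 with total counts as the scale), shares under those of all tested genes. The autophagy cargo receptor Sqstm1 was at 259, 207 and 195 CPM at 0 h and 414, 583 and 409 CPM at 48 h (log2 fold change 1.09 ± 0.18, edgeR adjusted p = 0.000741). Atg13, of the kinase complex that starts autophagy, was at 149.7, 99.9 and 132 CPM at 0 h and 38.4, 47.5 and 37.6 CPM at 48 h (log2 fold change -1.63 ± 0.22, edgeR adjusted p = 0.000202). The median of the autophagy list was -0.17 and turned to 0.05 with total counts as the scale.

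NF-kB, the transcription factor family of inflammation, moved with its own inhibitors. Of 28 tested factors and feedback genes, 19 rose and 1 fell (median log2 1.22). Bcl3, a nuclear co-regulator, was at 0.602, 0.5101 and 0.602 CPM at 0 h and 45.01, 38.99 and 43.7 CPM at 48 h (log2 fold change 6.19 ± 0.26, edgeR adjusted p = 2.56e-08). Nfkb2 was at 12.5, 15.2 and 13.7 CPM at 0 h and 53.96, 59.7 and 55.2 CPM at 48 h (log2 fold change 2.02 ± 0.197, edgeR adjusted p = 1.85e-05), and its partner Relb was at 7.02, 5.101 and 4.58 CPM at 0 h and 27.3, 26.3 and 28.1 CPM at 48 h (log2 fold change 2.29 ± 0.28, edgeR adjusted p = 8.5e-05). The inhibitor Nfkbia was at 18.4, 22.1 and 16.5 CPM at 0 h and 85.2, 77.7 and 63.7 CPM at 48 h (log2 fold change 1.99 ± 0.24, edgeR adjusted p = 7.62e-05). In all 4 genes every 48 h library lay above every 0 h library, and the 48 h libraries lay close together. Irak1 and Cyld did not pass, at 105 ± 5.201 to 102 ± 11.9 CPM and 55.9 ± 2.76 to 54.2 ± 6.39 CPM. Of 25 toll-like and pattern receptors, 12 rose and 0 fell (median log2 1.27). Neutrophil and macrophage marker sums were higher at 48 h too, most of all in 48 h replicate 1, and the part of those cells in this count was not tested. Without that library 9 of these receptors rose and the median was 0.70. The RNA sensor Ddx58 was at 24.2, 19.9 and 24.6 CPM at 0 h and 69.5, 67.8 and 45.2 CPM at 48 h (log2 fold change 1.41 ± 0.22, edgeR adjusted p = 0.000482). The adaptor of DNA sensing Tmem173 was at 5.42, 11.7 and 10.7 CPM at 0 h and 52.8, 23.2 and 22 CPM at 48 h (log2 fold change 1.82 ± 0.35, edgeR adjusted p = 0.002). Clec4d, a lectin receptor of myeloid cells, was at 0, 0.204 and 0.241 CPM at 0 h and 25.6, 9.82 and 6.85 CPM at 48 h (log2 fold change 6.49 ± 0.9, edgeR adjusted p = 0.000263). Tlr4 was at 18.7, 15.6 and 20 CPM at 0 h and 54.2, 19.3 and 18.1 CPM at 48 h, which did not pass. For Clec4d, the log2 fold change was 5.74 without 48 h replicate 1. For Tlr4, the log2 fold change was 0.05 without 48 h replicate 1.

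Genes of cell death rose on balance. Of 32 regulators of apoptosis and related death, 16 rose and 5 fell (median log2 0.699), with 3 fallers without 48 h replicate 1. Casp8, the caspase of death receptors, was at 5.72, 8.06 and 5.06 CPM at 0 h and 32.9, 20.7 and 36.1 CPM at 48 h (log2 fold change 2.25 ± 0.32, edgeR adjusted p = 0.000293). Casp12 was at 3.91, 3.57 and 5.301 CPM at 0 h and 11.3, 12.1 and 14.1 CPM at 48 h (log2 fold change 1.55 ± 0.25, edgeR adjusted p = 0.000571). A pair of genes of necroptosis, a lytic form of death, were nearly absent at 0 h. Ripk3 had 3 counts at 0 h and 6.19, 5.25 and 3.94 CPM at 48 h, a ratio of 48.3 (95% exact counting interval 16.2 to 237) at an edgeR adjusted p of 0.000215. Mlkl had 1 count at 0 h and 8.95, 3.21 and 4.46 CPM at 48 h, a ratio of 157 (95% exact counting interval 27.8 to 6231) at an edgeR adjusted p of 0.000314. Ripk3 and Mlkl were both highest in 48 h replicate 1, as the neutrophil and macrophage marker sums were. The part of those cells in these rises was not tested. Xiap and Cflar, which block caspases, did not pass, at 159 ± 18.3 to 118 ± 11.1 CPM and 86.6 ± 8.26 to 91.1 ± 12.3 CPM.

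Of 28 targets of p53, the DNA damage factor, 13 rose and 4 fell (median log2 0.53). Of these targets, 2 fell with total counts as the scale and without any 1 WT library other than 0 h replicate 1. Cdkn1a, the cell cycle inhibitor p21, was at 1.505, 2.55 and 1.33 CPM at 0 h and 54.1, 45.1 and 46.6 CPM at 48 h (log2 fold change 4.74 ± 0.46, edgeR adjusted p = 2.67e-05). Eda2r, a receptor of the TNF family, was at 0.301, 0.5101 and 0.482 CPM at 0 h and 14.2, 10.2 and 18.3 CPM at 48 h (log2 fold change 5.01 ± 0.53, edgeR adjusted p = 3.79e-05), Plk2 rose by log2 2.93 ± 0.38 and Phlda3 by 2.15 ± 0.31 (edgeR adjusted p = 0.000148 and 0.000289). Ccng1, another target, was at 154 ± 36.6 to 119 ± 6.33 CPM and did not pass. Of 36 phosphatases that switch off kinase signals, 9 rose (25%) and 6 fell (16.7%), against 19.1% and 13.5% of all tested genes. Only 3 of them fell with total counts as the scale or without 48 h replicate 1. Dusp6, which acts on ERK, was at 33.5, 33.4 and 27.1 CPM at 0 h and 102, 89.8 and 96.4 CPM at 48 h (log2 fold change 1.62 ± 0.17, edgeR adjusted p = 3.5e-05). The receptor phosphatase Ptprd was at 176, 195 and 236 CPM at 0 h and 79.6, 66.9 and 87.6 CPM at 48 h (log2 fold change -1.37 ± 0.25, edgeR adjusted p = 0.00128). The median of that list, -0.08, turned to 0.13 with total counts as the scale.

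Genes of the daily clock fell more often than they rose. Of 21 clock genes, 4 rose and 9 fell (median log2 -0.395). The number of clock genes that rose was 2 with the replicate block, 2 without 0 h replicate 1, 2 without 0 h replicate 2, 2 without 0 h replicate 3 and 2 without 48 h replicate 1. The PAR-type factors, which carry the rhythm to other genes, were among the fallers: Hlf was at 280.4, 269 and 313 CPM at 0 h and 39.5, 67.8 and 68.99 CPM at 48 h (log2 fold change -2.29 ± 0.26, edgeR adjusted p = 5.42e-05). Tef was at 397, 358 and 427 CPM at 0 h and 97.4, 104 and 114 CPM at 48 h (log2 fold change -1.904 ± 0.22, edgeR adjusted p = 6.09e-05). The repressor Per3 fell too, at 158, 165 and 203 CPM at 0 h and 39.02, 36.8 and 46.6 CPM at 48 h (log2 fold change -2.102 ± 0.25, edgeR adjusted p = 7.78e-05). The repressor Cry2 was at 72.9, 66.2 and 60.96 CPM at 0 h and 18.8, 24.4 and 27.7 CPM at 48 h (log2 fold change -1.496 ± 0.19, edgeR adjusted p = 0.000123). The activators that drive them did not pass: Clock was at 158 ± 14.3 to 123 ± 10.4 CPM and Arntl at 20.3 ± 6.34 to 19.4 ± 5.36 CPM (edgeR adjusted p = 0.167 and 0.885). In Hlf, Tef, Per3 and Cry2 all 48 h libraries lay below all 0 h libraries. The times are nominally whole days apart, but the hour of collection is not given, so hour of day and time after surgery cannot be told apart.

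Genes commonly raised by glucocorticoid hormone did not rise as a group. Of 18, 3 rose and 6 fell (median log2 -0.45). The largest rise on the list was that of Lcn2, described above as an acute phase gene (log2 fold change 5.902 ± 0.498, edgeR adjusted p = 7.58e-06). Klf15, a classical target, was at 21.6, 19.99 and 18.7 CPM at 0 h and 2.09, 3.403 and 5.29 CPM at 48 h (log2 fold change -2.48 ± 0.31, edgeR adjusted p = 0.000119). The cell cycle inhibitor Cdkn1c was at 129, 86.5 and 80.4 CPM at 0 h and 9.71, 32.3 and 15.9 CPM at 48 h (log2 fold change -2.35 ± 0.41, edgeR adjusted p = 0.00137). For Cdkn1c, the log2 fold change was -2.94 without 48 h replicate 2. Errfi1, a brake on the EGF receptor that many other signals raise, was at 31.8, 32.5 and 32.05 CPM at 0 h and 117, 107 and 54.2 CPM at 48 h (log2 fold change 1.53 ± 0.25, edgeR adjusted p = 0.000698). Glul and Sgk1, further targets, did not pass, at 1672 ± 182 to 2357 ± 810.3 CPM and 209 ± 96.6 to 258 ± 50.5 CPM. Of 19 Kruppel-like factors, 5 rose and 2 fell, with Klf10, induced by TGF-beta, at 13.7, 11.6 and 13.4 CPM at 0 h and 75.8, 66.3 and 60.8 CPM at 48 h (log2 fold change 2.39 ± 0.19, edgeR adjusted p = 4.87e-06). Klf6 was at 51.2, 60.2 and 57.2 CPM at 0 h and 148, 127 and 129.7 CPM at 48 h (log2 fold change 1.26 ± 0.15, edgeR adjusted p = 6.79e-05). The number of Kruppel-like factors that rose was 3 without 0 h replicate 1, 3 without 0 h replicate 2 and 3 without 48 h replicate 1.

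Genes of developmental signals changed in both directions. Of 47 Wnt genes, 10 rose (21.3%) and 14 fell (29.8%), against 19.1% and 13.5% of all tested genes (median log2 of the list -0.26). With total counts as the scale, 11 rose and 10 fell. Tcf7, the nuclear partner of beta-catenin, was at 4.92, 4.28 and 5.54 CPM at 0 h and 40.1, 22.2 and 21.1 CPM at 48 h (log2 fold change 2.498 ± 0.31, edgeR adjusted p = 0.000108). The feedback gene Nkd2 was at 19.4, 11.6 and 13.1 CPM at 0 h and 63.2, 42.3 and 35.8 CPM at 48 h (log2 fold change 1.68 ± 0.26, edgeR adjusted p = 0.000482). Rspo1, which boosts Wnt receptors, was at 131, 108 and 141 CPM at 0 h and 7.61, 30.3 and 16.1 CPM at 48 h (log2 fold change -2.81 ± 0.43, edgeR adjusted p = 0.000666). The receptor Fzd8 was at 33.9, 44.99 and 39.8 CPM at 0 h and 19.2, 18.3 and 15.04 CPM at 48 h (log2 fold change -1.17 ± 0.19, edgeR adjusted p = 0.000534). For Rspo1, the log2 fold change was -3.42 without 48 h replicate 2. Wnt7b, at 601 ± 74.8 to 458 ± 175 CPM, did not pass.

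Of 31 genes of the Hippo pathway and targets of YAP, 8 rose (25.8%) and 2 fell (6.45%), against 19.1% and 13.5% of all tested genes. The receptor kinase Axl was at 54.9, 60.9 and 57.7 CPM at 0 h and 668, 419 and 774 CPM at 48 h (log2 fold change 3.42 ± 0.33, edgeR adjusted p = 2e-05). The matricellular Cyr61 was at 30.4, 13.8 and 16.4 CPM at 0 h and 196, 145 and 312 CPM at 48 h (log2 fold change 3.43 ± 0.44, edgeR adjusted p = 0.000241). F3, tissue factor, which starts clotting, was at 12.04, 15.4 and 13.97 CPM at 0 h and 40.8, 52.8 and 32.6 CPM at 48 h (log2 fold change 1.61 ± 0.23, edgeR adjusted p = 0.000263). Among 27 genes of vitamin A handling, 8 rose and 3 fell. The retinoic acid carrier Crabp2 was at 0.502, 0.204 and 1.205 CPM at 0 h and 91.7, 35.2 and 26.8 CPM at 48 h (log2 fold change 6.35 ± 0.65, edgeR adjusted p = 4.6e-05). Aldh1a1, which makes retinoic acid and is abundant in lens epithelium, was at 1389.8, 859 and 1262 CPM at 0 h and 325, 497 and 581 CPM at 48 h (log2 fold change -1.32 ± 0.32, edgeR adjusted p = 0.00703). For Crabp2, the log2 fold change was 7.13 without 0 h replicate 3 and 5.62 without 48 h replicate 1. Of 47 semaphorins, plexins and netrins, 9 rose (19.1%) and 11 fell (23.4%), against 19.1% and 13.5% of all tested genes. With total counts as the scale, 10 rose and 9 fell. The receptor Plxnd1 was at 18.8, 9.69 and 13.97 CPM at 0 h and 79.2, 70.2 and 139 CPM at 48 h (log2 fold change 2.76 ± 0.38, edgeR adjusted p = 0.000304). The ligand Sema3d was at 91.7, 57.5 and 80.8 CPM at 0 h and 13.1, 16.1 and 13.9 CPM at 48 h (log2 fold change -2.41 ± 0.31, edgeR adjusted p = 0.000163). The number of these that rose was 4 without 0 h replicate 1 and 5 without 48 h replicate 1. The number that fell was 19 with the WT libraries alone.

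Genes of transcription and chromatin regulation changed in both directions. Of 58 enzymes of DNA methylation and chromatin, 7 rose and 15 fell (median log2 -0.22). Setd7, a lysine methyltransferase, was at 586, 403 and 536 CPM at 0 h and 106, 127 and 168 CPM at 48 h (log2 fold change -1.93 ± 0.27, edgeR adjusted p = 0.000228). Tet1, which oxidises methylcytosine, was at 61.99, 58.6 and 77.8 CPM at 0 h and 7.61, 7.097 and 11.3 CPM at 48 h (log2 fold change -2.93 ± 0.39, edgeR adjusted p = 0.000218). The maintenance methyltransferase Dnmt1 and its guide Uhrf1, both raised in dividing cells, rose (log2 1.24 ± 0.202 and log2 3.31 ± 0.45, edgeR adjusted p = 0.000653 and 0.000338). The number that fell was 8 with total counts as the scale, 9 without 0 h replicate 3 and 8 without 48 h replicate 3. With total counts as the scale, 12 rose and 8 fell. Of 48 homeobox genes, 5 rose and 12 fell (median log2 -0.27). With total counts as the scale, 10 rose and 9 fell. Cux2 was at 45.3, 40.3 and 38.4 CPM at 0 h and 7.04, 8.56 and 10.9 CPM at 48 h (log2 fold change -2.23 ± 0.24, edgeR adjusted p = 4.4e-05). Zfhx4 was at 237, 246 and 269.6 CPM at 0 h and 82.1, 87.2 and 119 CPM at 48 h (log2 fold change -1.39 ± 0.28, edgeR adjusted p = 0.00246). Tgif1, which restrains TGF-beta signals, was at 44.4, 38.5 and 43.97 CPM at 0 h and 108, 113 and 135 CPM at 48 h (log2 fold change 1.49 ± 0.24, edgeR adjusted p = 0.000562). Of 58 splicing factors, 12 rose, close to the share of all tested genes, and 4 fell. Fallers among them numbered 2 with total counts as the scale, 7 by DESeq2, 2 without 0 h replicate 3 and 2 without 48 h replicate 1. The risers included the cold-shock protein Rbm3 at 78.1, 68.2 and 92.4 CPM at 0 h and 345, 193 and 328 CPM at 48 h (log2 fold change 1.86 ± 0.27, edgeR adjusted p = 0.000331). Celf1, an RNA-binding protein needed in lens, was at 480.3, 623 and 704 CPM at 0 h and 205, 239 and 291 CPM at 48 h (log2 fold change -1.298 ± 0.27, edgeR adjusted p = 0.00265). The number of splicing factors that rose was 22 with total counts as the scale, 7 without 0 h replicate 2 and 6 without 48 h replicate 1.

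Energy metabolism changed gene by gene. In the tricarboxylic acid cycle and its entry, 11 of 34 genes rose and 4 fell (median log2 0.21). Mdh2, malate dehydrogenase, was at 110.3, 90.7 and 81.7 CPM at 0 h and 216, 163 and 176 CPM at 48 h (log2 fold change 0.97 ± 0.203, edgeR adjusted p = 0.00304). Pdk2, a kinase that shuts the entry, was at 208, 179.6 and 172 CPM at 0 h and 83.3, 92.2 and 71.5 CPM at 48 h (log2 fold change -1.18 ± 0.21, edgeR adjusted p = 0.001). The number that rose was 5 without 0 h replicate 2, 7 without 0 h replicate 3 and 5 without 48 h replicate 1. In the pentose phosphate and glycogen routes, 7 of 25 rose and 7 fell (10 and 6 with total counts as the scale). The glycogen phosphorylases fell, Pygm at 105, 107 and 94.8 CPM at 0 h and 25.3, 42.6 and 37.2 CPM at 48 h (log2 fold change -1.54 ± 0.22, edgeR adjusted p = 0.000258) and Pygb by 1.06 on the log2 scale (edgeR adjusted p = 0.000698). Pgd, of the pentose phosphate route, was at 49.96, 46.2 and 54.1 CPM at 0 h and 141, 109.9 and 109 CPM at 48 h (log2 fold change 1.26 ± 0.202, edgeR adjusted p = 0.000584). The number that rose in this list was 4 without 0 h replicate 3 and 4 without 48 h replicate 1.

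Fatty acid oxidation and peroxisome genes were below the background in number, with 3 of 53 up and 6 down (7 and 1 with total counts as the scale). The regulator Ppara was at 11.3, 13.9 and 12.8 CPM at 0 h and 4.95, 5.35 and 3.32 CPM at 48 h (log2 fold change -1.48 ± 0.296, edgeR adjusted p = 0.00235). The list's median of -0.06 turned to 0.15 with total counts as the scale. Of 52 sphingolipid and phospholipid enzymes, 13 rose (25%) and 7 fell (13.5%), near the 19.1% and 13.5% of all tested genes. Ugcg, which makes glucosylceramide, was at 44.9, 46.01 and 44.7 CPM at 0 h and 252, 125 and 160.2 CPM at 48 h (log2 fold change 1.99 ± 0.22, edgeR adjusted p = 5.14e-05). Enpp2, autotaxin, which makes lysophosphatidic acid, was at 112, 196 and 112 CPM at 0 h and 9.71, 27.4 and 17.5 CPM at 48 h (log2 fold change -2.94 ± 0.43, edgeR adjusted p = 0.000524). The median of that list, -0.11, turned to 0.103 with total counts as the scale.

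Of 52 genes of the primary cilium, the sensory antenna of the cell, 1 rose and 10 fell (3 and 2 with total counts as the scale). Ift172, of the transport trains, was at 58.9, 77.3 and 77.6 CPM at 0 h and 35.2, 38.99 and 35.9 CPM at 48 h (log2 fold change -0.96 ± 0.205, edgeR adjusted p = 0.00346). Bbs1 was at 46.9, 50.6 and 42.05 CPM at 0 h and 23.98, 29.1 and 23.3 CPM at 48 h (log2 fold change -0.87 ± 0.19, edgeR adjusted p = 0.00448). The list's median of -0.18 turned to 0.03 with total counts as the scale. The number of cilium genes that fell was 2 with total counts as the scale, 5 without 0 h replicate 1, 5 without 0 h replicate 2, 5 without 0 h replicate 3, 4 without 48 h replicate 1 and 5 without 48 h replicate 3. Of 12 hedgehog genes, which signal through the cilium, 2 rose (16.7%) and 3 fell (25%), against 19.1% and 13.5% of all tested genes. The receptor Ptch1 was at 80.95, 91.6 and 92.2 CPM at 0 h and 25.03, 40.1 and 34.9 CPM at 48 h (log2 fold change -1.41 ± 0.29, edgeR adjusted p = 0.00314). The number of hedgehog genes that rose was 1 with the replicate block, 0 without 0 h replicate 1, 0 without 0 h replicate 2, 1 without 0 h replicate 3, 0 without 48 h replicate 1 and 1 without 48 h replicate 3. Their fallers were fewer as well: the number was 1 with total counts as the scale, 1 without a filter, 1 without 0 h replicate 1, 1 without 0 h replicate 3, 1 without 48 h replicate 2 and 1 without 48 h replicate 3. Of 22 Fox factors, 3 rose and 2 fell, both shares under those of all genes, and Foxm1, a driver of mitosis, was at 6.52, 3.88 and 7.95 CPM at 0 h and 84.2, 24.5 and 89.5 CPM at 48 h (log2 fold change 3.44 ± 0.52, edgeR adjusted p = 0.000685).

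Some risers sat side by side on the chromosome. Looking for 3 or more consecutive tested genes that all passed and changed at least 4-fold in one direction, a rule set after the data were seen, found 26 runs, of which 24 rose and 2 fell. Of the 1007 genes that rose at least 4-fold, 89 lay in such runs, and 367 genes in all fell at least 4-fold. The number of runs that gene order alone would give was not computed. Beside chemokine, metalloproteinase and Serpina3 clusters, the runs that rose included Tfec, Tes, Cav2, Cav1 and Met at chr6:16833381-17573980, the Schlafen block Slfn10-ps, Slfn2, Slfn1 and Slfn4 at chr11:83028126-83190216, and the receptor blocks around Trem1, Clec4d and Cd300lb. Several of these blocks hold families of related sequence, in which reads may be assigned to the wrong member.

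Most genes moved in the same direction in the fibronectin knockout. Fn1, the targeted gene, was at 18.96, 23.1 and 15.5 CPM at 0 h and 1515, 528 and 979 CPM at 48 h in WT, and its mean went from 11.6 ± 4.51 to 377 ± 279.6 CPM (mean ± SD, n = 3) in FNcKO, so transcript was still counted there. Of the 4745 genes that passed in WT, 4630 (97.6%) had the same sign in FNcKO, against 71.3% of the genes that did not pass. The genes that rose in WT had a median log2 fold change of 1.39 in WT and 1.17 in FNcKO, and those that fell had -1.14 and -0.80. Because the genes were picked by their WT change, a smaller median in the other genotype is built into the choice. Igfbp3 went from 2.172 ± 0.385 to 248 ± 191 CPM in FNcKO, Aars from 63.2 ± 6.27 to 155 ± 22.8 CPM and Hlf from 284 ± 66.1 to 80.6 ± 19.9 CPM. A test of the difference of the responses gave 0 genes past the threshold (0% of 14560), with a smallest edgeR adjusted p of 0.186 and 735 genes at an unadjusted p under 0.05. DESeq2 called 28.

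**Figure D5:**
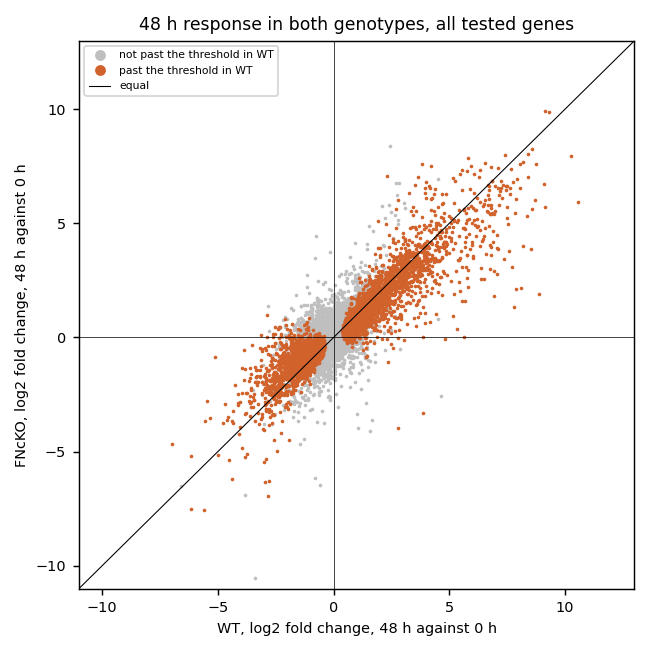
Log2 fold change at 48 h against 0 h in FNcKO (vertical) and WT (horizontal) for all 14560 tested genes, with genes past the threshold in WT in orange and the line of equal change in black. Of the orange points, 97.6% have the same sign in both genotypes.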

How the data were processed

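RNA from lens capsules with attached epithelial cells was sequenced in 12 libraries. The deposited gene counts are whole numbers of reads per gene; per the submitters' processing notes the tools included Trim Galore 0.4.4, TopHat2 2.1.0, HTSeq 0.6.1p1 and the mm10 build. The labels name a stranded kit, but no source used here states the strand setting of the counting, so antisense and overlapping genes are uncertain. The deposited RPKM values, made by the authors, were used only to check the counts. A combined table of 18 columns was not used.

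Counts of all 12 libraries were fitted with edgeR 4.0.16 in R 4.3.3 (TMM, filterByExpr, robust quasi-likelihood F test on 4 group means, Benjamini-Hochberg adjustment over 14560 genes, threshold 0.05). The SE is the log2 fold change divided by the square root of F. In simulated data of 14385 genes, 100 genes were changed 2-fold and 100 were changed 4-fold. There this test recovered 32% of 2-fold and 81% of 4-fold changes, and 10 of 123 calls were false. In the real data 32.6% of tested genes passed, a far larger share than was changed in the simulation. The adjusted threshold depends on that share, so these rates do not give the sensitivity or false call rate of the real comparison. DESeq2 1.42.0 and 13 other settings were run as alternatives. Named genes are the 14 largest rises and falls at 20 CPM or more with no overlap and outside lists of matrix, cell cycle, crystallin and inflammatory genes, the 10 largest differences each way in CPM, and up to 4 called and 2 abundant uncalled members per list, with a few further genes chosen after their values were seen (Gjb2, Gja4, Gja3, Iars, Tars, Yars, Arntl, Slc7a5, Pax6, Foxe3 and Fn1). The comparison, the 42 pathway and 11 marker lists and the 8 motifs were chosen with earlier results of these data known. Some items under the naming rule, and 1 pathway list, are not reported here. Deviations of same-numbered WT libraries from their group means correlated at -0.177, 0.2 and -0.076, against -0.288 to 0.319 for differently numbered ones. With 3 libraries per group such values cannot show or exclude a shared batch, and the libraries were treated as unpaired. Exact intervals cover counting error only, at 95%, and reads without molecular identifiers are not independent molecules.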

Additional observations from a re-analysis of the deposited data

How the results depend on the processing

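The number of genes past the threshold lay between 4184 and 5315 under the 7 alternatives that kept all 12 libraries, against 4745, was 5172 with the WT libraries alone, and 3209 to 4183 with 1 WT library left out (rises 1985 to 2568, changes of at least 2-fold 2335 to 2953). The number that fell was 1970, with 1211 when total counts set the scale and 1198 to 1615 with 1 WT library left out, lowest without 48 h replicate 1; the cause was not tested. With the replicate number as a block, 4184 genes passed, of which 2512 rose; the difference of responses between genotypes then had 1 gene past the threshold, against 0. DESeq2 gave 28 genes for that difference, and leaving out 1 WT library gave 0 to 1. With 1 library left out, fewer samples enter the fit. Among 249 named genes past the threshold no direction reversed under any alternative; 9 lost the threshold with the replicate block, 10 with total counts as the scale and 10 to 14 with 1 WT library left out. A stricter filter, another scaling by median of ratios and a TMM without crystallins each lost 0 of those they tested. At the depth of these libraries, 3 counts are 0.286 to 0.361 CPM, so genes near 0 at 0 h have imprecise ratios.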
